A study of Homo sapiens with 8 samples.

Results

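Caveolae are flask-shaped pits of the plasma membrane that are abundant in many endothelial cells, smooth muscle cells, fibroblasts and adipocytes. Caveolin proteins form their bulb together with cholesterol, cavin proteins coat it, and ATPases of the EHD family with the F-BAR protein PACSIN2 shape or hold its neck. In endothelium, PLVAP builds the thin diaphragm that closes fenestrae and the necks of some caveolae. Vessels with a blood-brain or blood-retinal barrier are known for few caveolae and for lacking PLVAP when mature. The 10 genes described here are these structural parts: the caveolins CAV1 and CAV2, the cavins CAVIN1, CAVIN2 and CAVIN3, the ATPases EHD2, EHD3 and EHD4, PACSIN2 and PLVAP. They were chosen by gene name from the 30386 genes of the deposited table, in which each had 1 row.

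The study compared endothelial cells (iEC) with a matched differentiation to retinal endothelial cells (iREC), each with 4 samples named C, D, E and F at passage 1. WTC-TJP1, an established human iPSC line, was the source of all 8 samples, so they share 1 genetic background, and the protocols of differentiation are not given in the sources used here. The labels give no separate cultures behind the letters, so p-values measure the spread between these samples, which may in part be technical. Poly-T beads had selected the messenger RNA, and read counts per gene were deposited. Totals ran from 14877502 to 16971865 counts in iEC and from 13739364 to 15987839 in iREC.

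The endothelial markers were present in all 8 samples, at levels from 4.21 ± 1.89 CPM for EMCN in iEC to 2627 ± 1016 CPM for KDR in iREC (SD over 4 samples). The 12 endothelial markers examined summed to 7552 to 9574 CPM (read counts scaled to the size of the library, adjusted by the TMM method) in iEC and to 4575 to 10270 CPM in iREC. iREC F stood apart: it had the lowest endothelial sum, 4575 CPM, against 7898 to 10270 CPM in the other iREC samples. Its 14 mural and mesenchymal markers summed to 5897 CPM, against 1358 to 2131 CPM in the other iREC samples and 258.7 to 529.9 CPM in iEC. Its 7 epithelial markers summed to 4924 CPM, against 301.6 to 1117 CPM in the other iREC samples and 391.1 to 1174 CPM in iEC. The iEC samples were not uniform either. In iEC F the mural and mesenchymal sum was 529.9 CPM, against 258.7 to 284.9 CPM in the other iEC samples. The epithelial sum of iEC F was 1174 CPM, against 391.1 to 674 CPM in the others. In bulk RNA, fewer cells of a type and less RNA per cell cannot be told apart.

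Of the 10 genes, all of which passed the filter on low counts, 4 were lower in iREC (CAV1, CAV2, CAVIN3 and EHD2), 1 was higher (EHD3), and 5 did not pass the test (CAVIN1, CAVIN2, EHD4, PACSIN2 and PLVAP). The threshold for a call was an adjusted p of 0.05 in edgeR's quasi-likelihood test with Benjamini-Hochberg adjustment over 15330 genes. Over those genes, 25.0% were called in either direction, 11.7% lower and 13.2% higher in iREC. The median log2 fold change was -0.27 over the 10 genes and 0.02 over all tested genes. In 6 of the 10 genes, the 5 called genes and PLVAP, the groups did not overlap, where 29.1% of all tested genes had no overlap. The counts moved with the samples used. CAV2 and EHD2 both lost their calls without iEC E, without iREC D or without iREC E, which left 3 calls. Without iREC F there were 6 calls, PACSIN2 being added.

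**Figure D1:**
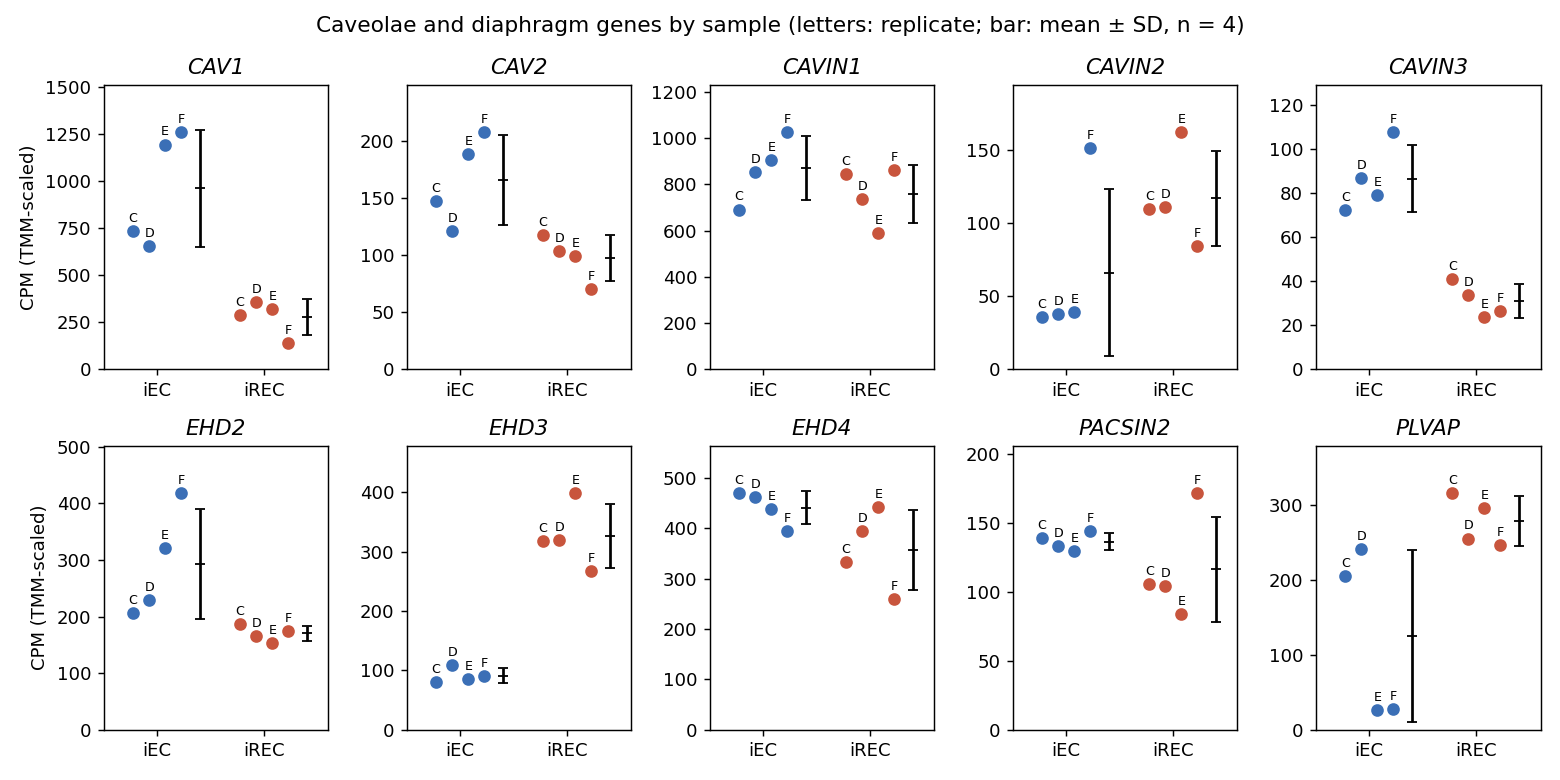
Level of each of the 10 genes in every sample, in CPM on TMM-scaled libraries, with iEC in blue, iREC in red and the replicate letter above each point; black bars give mean ± SD (n = 4). CAV1, CAV2, CAVIN3, EHD2, EHD3 and PLVAP show no overlap between groups, PLVAP splits iEC into C and D against E and F, and CAVIN2 in iEC F (151 CPM) lies with the iREC samples.

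**Figure D2:**
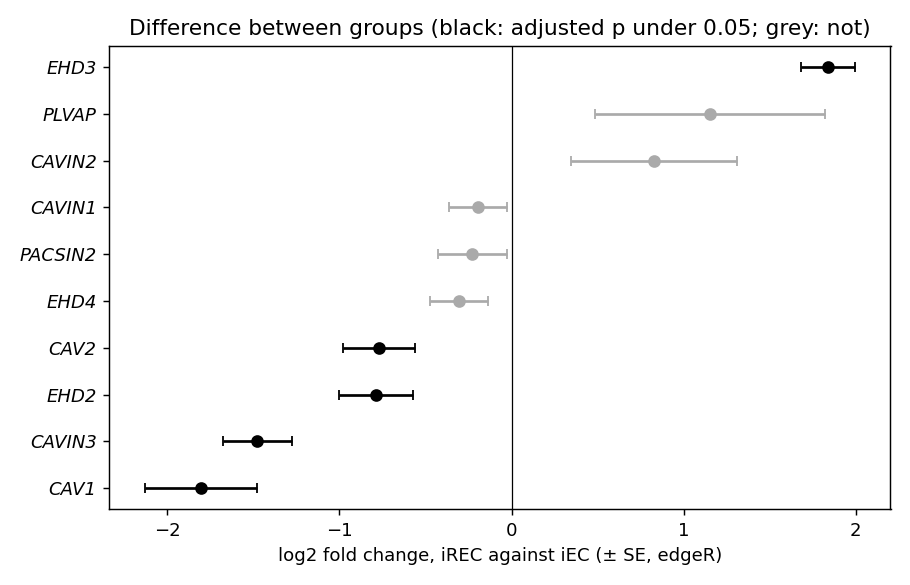
Log2 fold change of iREC against iEC with its standard error (edgeR) for the 10 genes; black points passed an adjusted p of 0.05 and grey points did not. The range is from -1.81 for CAV1 to 1.84 for EHD3, and PLVAP has the widest error, 0.67.

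Caveolin-1, the protein that drives formation of the caveolar bulb, had one of the widest differences. CAV1 (ENSG00000105974, GRCh38 chromosome 7, 116524785 to 116561184, plus strand) was at 735, 654, 1195 and 1260 CPM in iEC C, D, E and F. In iREC C, D, E and F it was at 286, 357, 317 and 139 CPM. Every iREC sample was below every iEC sample, iREC F was the lowest of all, and within iEC samples E and F were above C and D. The mean went from 961 ± 311 to 275 ± 95.4 CPM (SD over 4 samples), with a log2 fold change of -1.81 with a standard error of 0.32 (adjusted p 0.00369, edgeR). Without iREC F, the sample with the most mural and epithelial RNA, it was -1.59 with an adjusted p of 0.00268 (edgeR). The call held under each of the 16 alternatives.

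Caveolin-2, which joins caveolin-1 in mixed oligomers, fell less. CAV2 (chromosome 7, 116287380 to 116508541, plus strand) ends 16243 bases before CAV1 begins. Its iEC values in C, D, E and F were 147, 120, 188 and 207 CPM, and its iREC values 117, 103, 99.3 and 69.6 CPM. The order of the iEC samples resembled that of CAV1, with E and F high, and iEC D lay close above iREC C. The log2 fold change was -0.77 with a standard error of 0.21 (adjusted p 0.0252, edgeR). The call was lost without iEC E, iEC F, iREC D or iREC E, with adjusted p of 0.0743, 0.0581, 0.0589 and 0.0580 (edgeR).

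The 2 caveolins did not fall in proportion. The read count of CAV2 per read of CAV1 was 0.200, 0.184, 0.158 and 0.165 in iEC C, D, E and F, and 0.410, 0.288, 0.313 and 0.502 in iREC. All iREC ratios were higher. A ratio within a library does not depend on how libraries are scaled, so it was tested alone. The log2 ratio differed by 1.07 (exact two-sided permutation p 0.0286, adjusted p 0.0381 over 4 ratios, n = 4 and 4). The smallest p that 4 against 4 samples allow is 0.0286. The ratios of CAV2, CAVIN1 and EHD2 all have CAV1 as denominator, so they share its fall and are not separate results.

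Of the 3 cavins, CAVIN3 was lower in iREC, and CAVIN1 and CAVIN2 were not called. CAVIN1 (chromosome 17, 42402452 to 42423517, minus strand), without which caveolae do not form in most cells, was at 691, 855, 904 and 1026 CPM in iEC C, D, E and F. In iREC it was at 846, 735, 590 and 862 CPM, so the groups overlapped widely. Its log2 fold change was -0.20 with a standard error of 0.17 (adjusted p 0.435, edgeR), and no alternative of the 16 gave a call. Its ratio to CAV1 in the same sample mostly restates the fall of CAV1. There were 0.940, 1.31, 0.757 and 0.814 CAVIN1 reads per CAV1 read in iEC C, D, E and F, and 2.96, 2.06, 1.86 and 6.21 in iREC. The groups did not overlap, and iREC F was far above the others. The log2 ratio differed by 1.63 (exact two-sided permutation p 0.0286, adjusted p 0.0381 over 4 ratios), and by 1.27 without iREC F.

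CAVIN3 (chromosome 11, 6318946 to 6320647, minus strand), a cavin that binds caveolin-1 and protein kinase C delta, was at 72.3, 86.8, 79.1 and 108 CPM in iEC C, D, E and F. In iREC it was at 40.9, 33.4, 23.7 and 26.1 CPM. The lowest iEC sample was well above the highest iREC sample. The log2 fold change was -1.48 with a standard error of 0.20 (adjusted p 0.000855, edgeR), and it stayed between -1.64 and -1.36 and called under all 16 alternatives. An antisense gene, AC068733.3, shares 557 of its 1672 exon bases but had only 1 to 5 counts in any sample.

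CAVIN2 (chromosome 2, 191834302 to 191847255, minus strand), a cavin that bends membrane into tubules and is prominent in endothelium of some organs, was at 35.3, 37.4, 39.2 and 151 CPM in iEC C, D, E and F. In iREC it was at 110, 111, 162 and 84.4 CPM. iEC F alone lay among the iREC samples. The log2 fold change over all samples was 0.83 with a standard error of 0.48 (adjusted p 0.240, edgeR). Without iEC F it was 1.65 with an adjusted p of 0.00176 (edgeR). That sample was singled out by its own CAVIN2 value, so this p is a description only. The other alternatives gave no call, with adjusted p from 0.0893 (limma-voom) to 0.455 (edgeR without iEC E). The log2 ratio of CAVIN2 to CAVIN1 was higher in iREC by 1.30 (exact two-sided permutation p 0.0857, also 0.0857 after adjustment over 4 ratios). Without iEC F it was 1.72 (exact permutation p 0.0286, the smallest then possible). This p too is a description only, as iEC F was singled out by its CAVIN2 value.

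**Figure D3:**
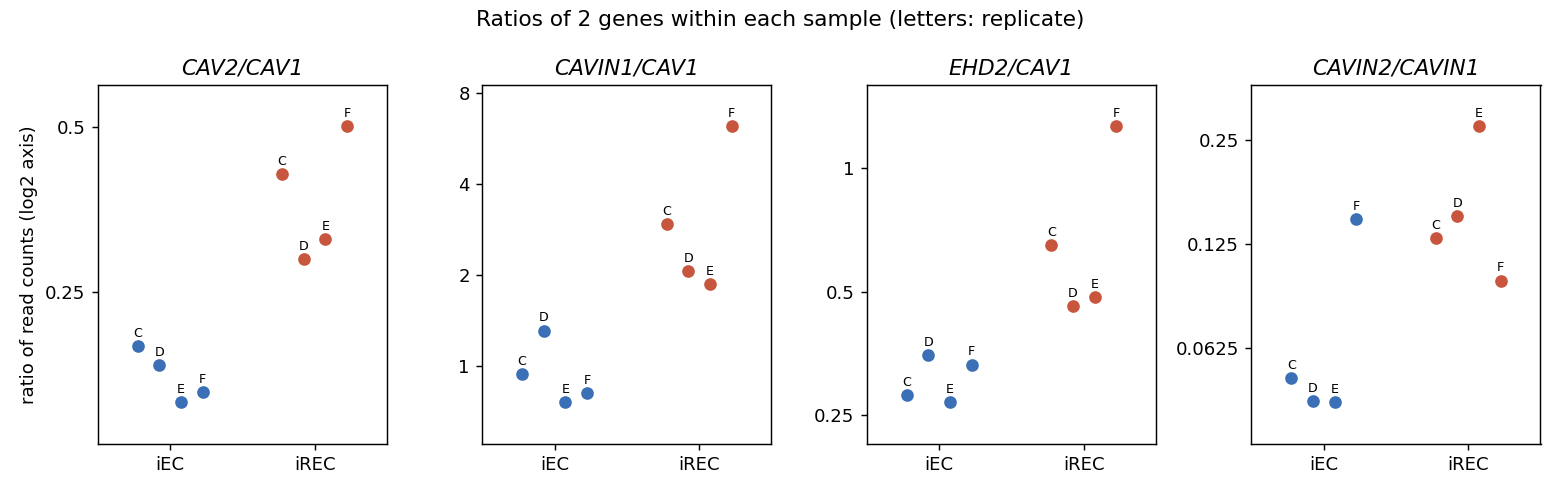
Ratio of the read counts of 2 genes within each sample on a log2 axis, for CAV2, CAVIN1 and EHD2 against CAV1 and for CAVIN2 against CAVIN1, with the replicate letter above each point. For the ratios to CAV1 all iREC samples (red) lie above all iEC samples (blue), with iREC F highest; for CAVIN2 to CAVIN1, iEC F (0.148) lies within the iREC range.

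The EHD ATPases moved in opposite directions. EHD2, which sits at the caveolar neck and keeps caveolae at the surface, fell, and EHD3, better known from recycling endosomes, rose. EHD2 (chromosome 19, 47713343 to 47743134, plus strand) was at 206, 229, 321 and 419 CPM in iEC C, D, E and F, and at 186, 165, 154 and 175 CPM in iREC. The iREC samples lay close together, while iEC E and F were above C and D, as for both caveolins. The log2 fold change was -0.79 with a standard error of 0.22 (adjusted p 0.0266, edgeR). The call was lost without iEC E, iREC D or iREC E, with adjusted p of 0.0761, 0.0740 and 0.0712 (edgeR).

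EHD2 also fell less than CAV1. There were 0.280, 0.350, 0.269 and 0.332 EHD2 reads per CAV1 read in iEC C, D, E and F, and 0.651, 0.462, 0.485 and 1.26 in iREC. The log2 ratio differed by 1.10 (exact two-sided permutation p 0.0286, adjusted p 0.0381 over 4 ratios). It was 0.78 without iREC F, and the p was 0.0571 when any 1 iEC sample was left out.

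EHD3 (ENSG00000013016, chromosome 2, 31234337 to 31269447, plus strand) was at 80.0, 109, 85.5 and 90.0 CPM in iEC C, D, E and F, and at 318, 319, 399 and 268 CPM in iREC. Each group was tight, and the lowest iREC sample was far above the highest iEC sample. The mean went from 91.1 ± 12.6 to 326 ± 54.1 CPM (SD over 4 samples), with a log2 fold change of 1.84 with a standard error of 0.16 (adjusted p 8.48e-05, edgeR). Over the 16 alternatives it stayed called and between 1.73 and 1.93. EHD4 (chromosome 15, 41895939 to 41972578, minus strand), a paralog found on endosomes and caveolae, was at 470, 462, 437 and 395 CPM in iEC C, D, E and F. In iREC it was at 334, 394, 442 and 259 CPM. The groups overlapped through iREC E, and the difference was not called (log2 fold change -0.30, standard error 0.17, adjusted p 0.219 by edgeR).

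The EHD genes are close paralogs, so their coding sequences (GENCODE release 29) were compared for stretches in which a read could come from either. The longest identical run is shown for each pair of EHD2, EHD3 and EHD4 and for EHD3 with EHD1, since EHD2 and EHD3 changed in opposite directions and a read inside such a run fits both genes.
EHD2 and EHD3, 26 bases: gtctacatcggctccttctggtccca
EHD3 and EHD4, 27 bases: ctgggcaagatctggaagctggccgac
EHD2 and EHD4, 32 bases: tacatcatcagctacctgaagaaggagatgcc
EHD1 and EHD3, 54 bases: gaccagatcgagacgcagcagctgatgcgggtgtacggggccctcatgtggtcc
Of the 4587 different 50-base words in EHD3 transcripts, 5 also occurred in another gene, all in EHD1. For EHD2 it was 3 of 3941 words, none of them in another EHD gene. CAV1 and PLVAP had 0 shared words, and the highest share, 28.0% for CAVIN3, was with its antisense gene. The largest identical run between the coding sequences of CAV1 and CAV2 was 12 bases.

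PACSIN2 (chromosome 22, 42835412 to 43015145, minus strand), a membrane-bending protein of the caveolar neck, was at 139, 133, 130 and 144 CPM in iEC C, D, E and F. In iREC it was at 106, 104, 84.2 and 172 CPM. iREC F was above all iEC samples and the other iREC samples were below all of them. The log2 fold change was -0.23 with a standard error of 0.20 (adjusted p 0.443, edgeR). Without iREC F it was -0.48 with an adjusted p of 0.0203 (edgeR). Among the 10 genes, EHD4 also has an antisense partner, AC020659.1, with 10 to 98 counts over 507 shared exon bases, and those of CAV2 and CAVIN2 had at most 4 counts. The annotated exons of PACSIN2 share 155 of 4554 bases with ARFGAP3 on the same strand. ARFGAP3 had 705 to 985 counts per sample and PACSIN2 1379 to 2622, and the effect of this overlap was not tested.

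PLVAP (ENSG00000130300, chromosome 19, 17351448 to 17377350, minus strand) differed more between iEC samples than between groups. It was at 205 and 241 CPM in iEC C and D, and at 26.6 and 27.2 CPM in iEC E and F. In iREC C, D, E and F it was at 315, 255, 296 and 246 CPM. All iREC samples were above all iEC samples, but iEC D lay just below iREC F, and the groups overlapped when libraries were scaled by their totals alone. The log2 fold change was 1.15 with a standard error of 0.67 (adjusted p 0.242, edgeR). It ran from 0.82 without iEC F to 1.83 with limma-voom over the 16 alternatives, and none of them gave a call. The iEC samples low in PLVAP, E and F, were those high in CAV1, CAV2 and EHD2. With 2 samples on each side, this arrangement was not tested.

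Upstream sequence is shown for 3 genes that stood at the ends of the range, CAV1 among those lower and EHD3 and PLVAP among those highest in iREC relative to iEC. The windows are the 250 bases before a RefSeq start site (GRCh38.p14), cut to the longest stretch outside GENCODE exons, 5′ to 3′ on the gene's strand, with GC boxes (GGGCGG on either strand, a site of Sp and KLF factors) in capitals.
CAV1, chr7:116526112-116526276, plus strand, 165 bases of the window before the start site at 116526362, which lies inside the annotated gene: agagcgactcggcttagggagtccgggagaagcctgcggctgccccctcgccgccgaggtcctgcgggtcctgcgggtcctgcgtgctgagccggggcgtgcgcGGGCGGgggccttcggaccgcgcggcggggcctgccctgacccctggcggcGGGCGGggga
EHD3, chr2:31233902-31234151, plus strand, 250 bases: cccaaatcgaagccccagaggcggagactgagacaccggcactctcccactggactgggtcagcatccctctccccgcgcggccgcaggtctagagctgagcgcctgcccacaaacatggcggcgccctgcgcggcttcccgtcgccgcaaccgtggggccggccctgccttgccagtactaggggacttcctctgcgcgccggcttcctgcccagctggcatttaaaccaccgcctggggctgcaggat
PLVAP, chr19:17377351-17377592, minus strand, 242 bases: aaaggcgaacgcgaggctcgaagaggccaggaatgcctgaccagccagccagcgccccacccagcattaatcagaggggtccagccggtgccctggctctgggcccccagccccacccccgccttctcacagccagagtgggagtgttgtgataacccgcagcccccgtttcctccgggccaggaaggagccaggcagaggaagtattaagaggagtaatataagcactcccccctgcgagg
Windows of the other CAV1 start sites in RefSeq, at 116525009 and 116525036, lie mostly or wholly in exons and hold 3 GC boxes each. The CAV1 stretch shown holds 2 GC boxes and the EHD3 and PLVAP stretches hold none (0). RefSeq windows matched 8 of the 10 genes. A GC box was in 8 of their 16 windows, those of CAV1, CAV2, EHD2 and EHD4 and 1 of PACSIN2, and in 42.6% of 35116 windows of all genes. Some of the 16 windows overlap, as those of the CAV1 start sites at 116525009 and 116525036 do, so they are not separate. By gene, 5 of the 8 had a GC box in a window. The other motifs searched on both strands, TGTTTAC of forkhead factors, TGANTCA of AP-1, TCACNCCAC of SREBP factors, ACCGGAAG of ETS factors and the CArG box of SRF, were in 0 of the 16 windows of these genes. Their shares over all windows ran from 0.883% for the SREBP motif to 6.57% for the AP-1 motif. A match is a description of letters and no match says only that these letters are not in the window.

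Levels of different genes were compared per gene length, from the deposited FPKM. In iEC, CAV1 and CAVIN1 led with geometric means of 224 and 223 FPKM, and did not differ beyond their spread. EHD2 followed at 71.3 FPKM, then EHD4 at 55.4, CAVIN3 at 50.7, PLVAP at 33.3, PACSIN2 at 29.7, CAV2 at 23.2, EHD3 at 19.4 and CAVIN2 at 16.3 FPKM. From EHD2 downward no neighbours differed by more than the larger of their SDs. In iREC the order was CAVIN1 at 193 FPKM, PLVAP at 118, EHD3 at 68.4, CAV1 at 62.4, EHD4 at 43.7, EHD2 at 42.5, CAVIN2 at 34.6, PACSIN2 at 24.3, CAVIN3 at 17.8 and CAV2 at 13.6 FPKM. There, CAVIN1 and PLVAP, PLVAP and EHD3, CAVIN2 and PACSIN2, and CAVIN3 and CAV2 were neighbours apart by more than the larger SD, and the other neighbours were not. CAV1, within the spread of CAVIN1 in iEC, was thus below CAVIN1 and PLVAP in iREC, where it lay within the spread of EHD3, a gene near the bottom of the order in iEC.

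**Figure D4:**
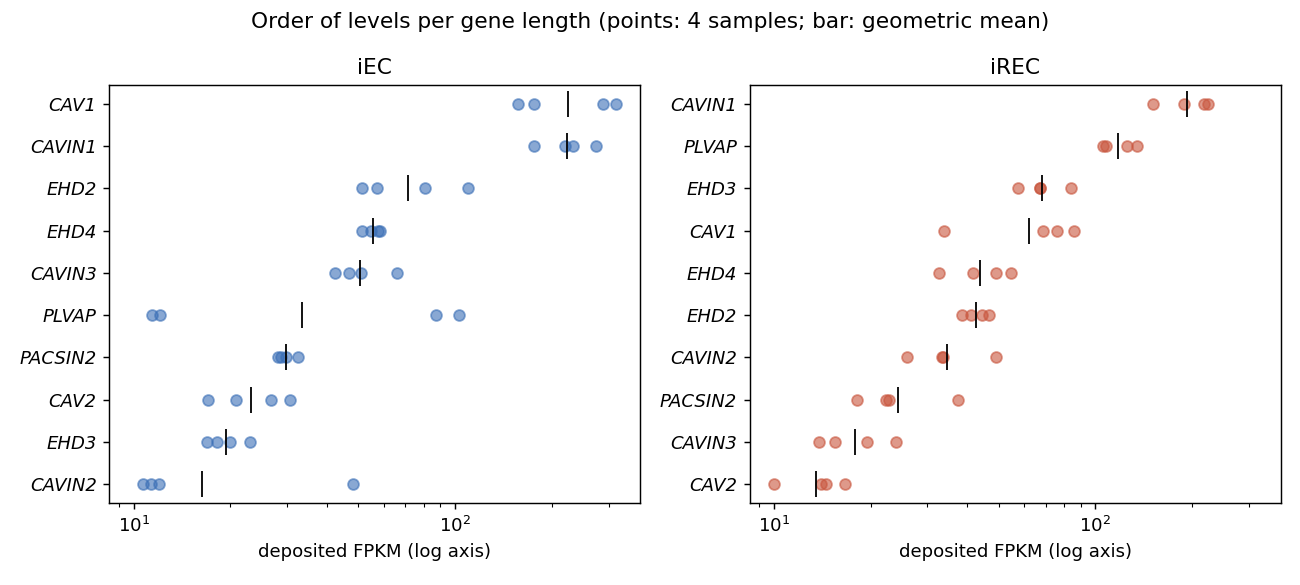
Deposited FPKM of the 10 genes in each sample (points) with the geometric mean of 4 samples (black bar), ordered within iEC (left) and iREC (right) on a log axis. CAV1 and CAVIN1 lie together at the top in iEC with 224 and 223 FPKM, and in iREC CAV1, at 62.4 FPKM, lies below CAVIN1 and PLVAP and overlaps EHD3; PLVAP in iEC shows E and F at 11.4 and 12.1 FPKM and C and D at 86.9 and 103 FPKM.

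The genes with the profile most like CAV1 were sought among 13032 other tested protein-coding genes, by the root mean square difference of log2 CPM profiles centred on their mean over the 8 samples. They were ARL11, CD109, HPCAL1, PAMR1 and PKIB, at 0.204, 0.220, 0.224, 0.236 and 0.276 log2 units. CD109 is a surface protein and HPCAL1 a calcium sensor. CD109 was at 182, 150, 236 and 239 CPM in iEC C, D, E and F, and at 64.5, 68.8, 74.7 and 43.0 CPM in iREC, so it shared the high iEC E and F and the low iREC F. ARL11 and PAMR1 were below 5 CPM in every sample. Among the other caveolar genes, CAVIN3 stood at place 91 in this order, CAV2 at 259 and EHD2 at 601. CAVIN1 stood at place 3940.

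The genes most like PLVAP were SEMA6D, RASGRP2, ZNF488, GRIK5 and PIMREG, at 0.373 to 0.484 log2 units, so no gene matched PLVAP as closely as the nearest matched CAV1. RASGRP2, an exchange factor of Rap proteins, was at 11.6 and 13.1 CPM in iEC C and D, at 2.84 and 1.93 CPM in iEC E and F, and at 15.3 to 43.9 CPM in iREC. PIMREG, a mitotic regulator, was at 32.8 and 36.9 CPM in iEC C and D, 11.0 and 4.44 CPM in E and F, and 36.7 to 72.5 CPM in iREC. SEMA6D, ZNF488 and GRIK5 stayed below 5 CPM in every sample. EHD3 came nearest to PLVAP among the 10 genes, at place 866, and CAV1 was at place 12533.

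Relatives and helpers of the caveolar coat moved in both directions. Of 9 such genes 7 were tested, and 3 were higher and 2 lower (median log2 fold change -0.01). Over all tested genes 25.0% were called, 13.2% higher and 11.7% lower in iREC, and these shares stand beside each list below. CAVIN4, the cavin known from muscle, fell from 12.8 ± 2.69 to 1.37 ± 0.442 CPM (SD over 4 samples). Its log2 fold change was -3.22 with a standard error of 0.30 (adjusted p 0.000131, edgeR). Its counts were 209, 245, 222 and 127 in iEC C, D, E and F, and 23, 17, 31 and 13 in iREC. The endosomal ATPase EHD1 fell (log2 fold change -0.63, standard error 0.18, adjusted p 0.0310 by edgeR), a call lost without iEC E, iEC F, iREC D or iREC E, and the list had 3 calls without iEC E. PACSIN3, a paralog of PACSIN2, rose from 6.98 ± 1.57 to 24.9 ± 14.6 CPM (SD over 4 samples). ROR1, a receptor that scaffolds caveolin and cavin-1, rose from 4.27 ± 2.26 to 33.8 ± 18.7 CPM (SD over 4 samples). Its log2 fold change was 2.98 with a standard error of 0.49 (adjusted p 0.00216, edgeR). PACSIN3 and ROR1 were highest in iREC F, with 700 and 928 counts, and without that sample both remained called, at log2 fold changes of 1.36 and 2.53. FLNA, the actin crosslinker that anchors caveolae, was called higher (log2 fold change 0.68, edgeR adjusted p 0.0396). That call was lost with no filter and in 5 of the 8 fits without a sample, those lacking iEC C, D or E or iREC C or F, with adjusted p up to 0.114 (edgeR). The muscle caveolin CAV3 had at most 3 counts and PACSIN1 at most 5 counts in any sample.

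Caveolae are rich in cholesterol. Of 16 genes of cholesterol synthesis, uptake, export and their regulation, 10 were lower in iREC and 0 higher, where 11.7% of all tested genes were lower. The median log2 fold change was -0.92 against 0.02 for all tested genes. FDFT1, which makes squalene, fell from 352 ± 29.9 to 125 ± 10.7 CPM (SD over 4 samples). Its log2 fold change was -1.50 with a standard error of 0.12 (adjusted p 5.38e-05, edgeR). Its counts were 5919, 5115, 6227 and 4602 in iEC C, D, E and F, and 2054, 1679, 1827 and 2016 in iREC, far apart and tight in each group. INSIG1, a sterol-regulated anchor of SREBP, fell from 98.6 ± 9.72 to 36.7 ± 5.26 CPM, and DHCR7, of the last step of synthesis, from 150 ± 18.6 to 54.9 ± 9.33 CPM (SD over 4 samples). HMGCS1, an enzyme near the start of the pathway, was not called, with a log2 fold change of -0.29 (adjusted p 0.296, edgeR). The lower genes were not all of synthesis: ABCG1, which exports cholesterol, was among them (log2 fold change -2.73, adjusted p 0.0275 by edgeR), and the exporter ABCA1 was not called (means of 110.3 CPM in iEC and 220.3 CPM in iREC, adjusted p 0.0520 by edgeR). The count of calls ran from 9 to 12 over the alternatives.

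**Figure D5:**
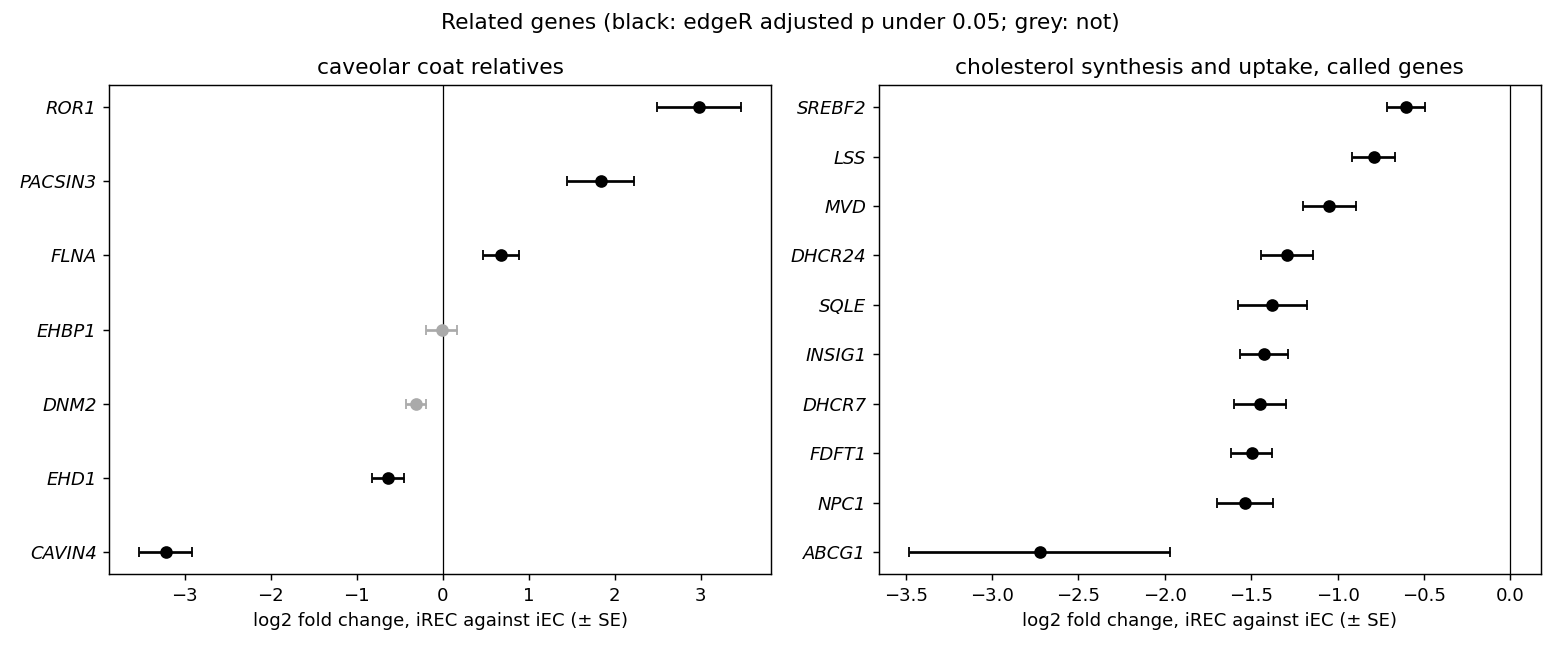
Log2 fold change of iREC against iEC with its standard error (edgeR) for the tested relatives of the caveolar coat (left) and the 10 called genes of cholesterol synthesis and uptake (right); black points passed an adjusted p of 0.05 and grey points did not. CAVIN4 (-3.22) and ROR1 (2.98) mark the ends of the left panel, and the 10 called genes on the right all lie below 0.

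Of 15 partners and cargoes of caveolae 14 were tested, and 5 were higher and 1 lower (median log2 fold change 0.11). Of all tested genes 25.0% were called. The fatty acid receptor CD36 rose from 0.987 ± 0.635 to 143 ± 91.7 CPM (SD over 4 samples), with an edgeR adjusted p of 0.000158. AOC3, an amine oxidase of the cell surface, rose from 1.16 ± 1.06 to 20.6 ± 7.01 CPM (log2 fold change 4.13, and 4.85 without iEC D), and the insulin receptor INSR from 0.707 ± 0.417 to 3.29 ± 0.935 CPM. The kinase FYN fell (log2 fold change -0.79, standard error 0.16, adjusted p 0.00742 by edgeR). NOS3, the nitric oxide synthase that caveolin-1 binds, was at 118 ± 15.1 and 143 ± 41.1 CPM and was not called (edgeR adjusted p 0.364).

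Of 10 genes tied to fenestrae and VEGF signalling, 2 were higher and 1 lower (median log2 fold change 0.11), where 25.0% of all tested genes were called. VEGFA, the factor that induces fenestrae and PLVAP in many vessels, rose from 7.13 ± 2.73 to 33.2 ± 8.37 CPM (SD over 4 samples). Its log2 fold change was 2.22 with a standard error of 0.30 (adjusted p 0.000899, edgeR). Its counts were 72, 77, 160 and 133 in iEC C, D, E and F, and 365, 511, 481 and 658 in iREC. A relation between VEGFA and PLVAP was not tested. The receptor NRP2 rose from 423 ± 114 to 1196 ± 371 CPM, and the ligand PGF fell from 84.2 ± 20.2 to 6.11 ± 5.17 CPM (SD over 4 samples). PGF had 211 counts in iREC F and 43 to 68 in the other iREC samples, and without iREC F its log2 fold change went from -3.78 to -4.57. MFSD2A, a lipid transporter that restrains caveolar traffic at the brain barrier, was at 1.50 ± 0.663 and 2.51 ± 2.30 CPM and was not called (edgeR adjusted p 0.516).

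The clathrin coat, the other main coat of endocytosis, had 5 of 17 genes called, 3 higher and 2 lower (median log2 fold change -0.03). The share called over all tested genes was 25.0%. The adaptor DAB2 rose from 150 ± 51.2 to 768 ± 214 CPM, and SNX9 fell from 152 ± 3.57 to 104 ± 5.83 CPM (SD over 4 samples), with an edgeR adjusted p of 0.000477 and 0.00274. The calls of EPS15, DNM1 and EPN2 were each lost in at least 4 fits without a sample, and the list had 3 calls without iEC C or iREC D and 2 without iEC E or iREC E. The heavy chain CLTC was at 773 ± 45.4 and 755 ± 49.9 CPM (edgeR adjusted p 0.857). Of 6 flotillins and other raft proteins, FLOT1 was higher (log2 fold change 0.56, edgeR adjusted p 0.0118) and THY1 lower (-1.76, edgeR adjusted p 0.0216), the latter lost without iEC C, iREC D or iREC E.

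Markers of other cell types moved beside these results. Of 14 mural and mesenchymal markers, cells that also carry caveolae, 11 were tested, and 4 were called higher in iREC and 1 lower (median log2 fold change 2.45). TAGLN rose from 34.6 ± 15.7 to 619 ± 238 CPM and POSTN from 13.4 ± 13.4 to 852 ± 335 CPM (SD over 4 samples), while RGS5 fell. The untested DES was at 0 or 1 count in every iEC sample and at 2, 21, 12 and 95 counts in iREC C, D, E and F. The untested DCN was also at 0 or 1 count in iEC, and at 9, 248, 69 and 2039 counts in iREC, so iREC F was highest in both. PDGFRA, also untested, was at 1 to 5 counts in iEC and 7 to 26 counts in iREC. PDGFRB, ACTA2, CSPG4, COL1A1, COL1A2 and COL3A1 were not called, and their groups overlapped. The summed level of the 14 markers was higher in every iREC sample than in any iEC sample. In iREC C that sum came mainly from TAGLN and POSTN, at 11195 and 8121 counts, with COL1A2 next at 1277 counts. PDGFRB was at 72 counts in iREC C and 246 counts in iEC F. Of 7 epithelial markers 5 were tested and 1 was called higher, KRT7, and the untested CDH1 was at 0 or 1 count in iEC and at 0, 72, 19 and 1246 counts in iREC C, D, E and F. The untested CLDN3 had at most 11 counts in any sample. Of 5 pluripotency markers 2 were tested: LIN28A was higher (log2 fold change 3.40, and 2.15 without iREC F) and DPPA4 lower, and the list summed to 39.01 to 91.02 CPM in iEC and 53.26 to 504.8 CPM in iREC, highest in F. NANOG was at 0 in all iEC samples and at most 2 counts in iREC. The mural list had 3 calls without iREC D, 9 without iREC C and 10 without iEC F, and the epithelial list had 0 without iEC C, iEC E or iREC D and 2 without iREC C. Only 1 of the pluripotency calls was left without iEC D, iEC E, iEC F, iREC D or iREC E. The part of these cells in the differences of the caveolar genes was not tested. Among the 12 endothelial markers 3 were called higher and 5 lower; PECAM1 fell from 2233 ± 286 to 754 ± 175 CPM and CDH5 from 1351 ± 229 to 799 ± 204 CPM (SD over 4 samples), while TEK and EMCN rose. Without iREC D, 5 of the 12 were called. With an adjusted p of 0.0298 (edgeR), the CDH5 call was lost without iREC D and without each of iEC D, E and F. CLDN5, the other marker called higher (adjusted p 0.049, edgeR), kept its call in only 5 of the 16 alternatives. Among the fits without a sample, it was called only without iREC F.

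The authors' deposited table lists adjusted p-values under 0.05 for CAV1, CAV2, CAVIN3, EHD2 and EHD3, the 5 genes called here. Of its 30386 genes 16.3% are under that threshold, a total that includes genes removed here by the filter on low counts. With DESeq2 on the 15330 genes that passed the filter, 30.4% were called. In the authors' deposited table the log2 fold change is -1.83 for CAV1, 1.82 for EHD3 and 1.15 for PLVAP, the last with an adjusted p of 0.308.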

How the data were processed

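Messenger RNA of 8 samples, 4 iEC and 4 iREC, was analysed from 1 deposited table. The authors deposited raw read counts per gene; reads were processed with fastp and HISAT2 2.0.5 on hg38, per the submitters' processing notes, and second strands were made with dUTP, per the labels' protocols, and the counting program and its use of strand are not given in the sources used here. The deposited signal columns equal counts divided by 1 size factor per sample. The deposited FPKM values equal those scaled counts per gene length, with 15383181 as the library size of every sample. In the file, deposited log2 fold changes, p-values and adjusted p-values carry no named test in the headers. Identifiers and coordinates of all 30386 genes were found in GENCODE release 29 (GRCh38).

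Counts were filtered by filterByExpr, scaled by TMM and tested with edgeR 4.0.16 (glmQLFit and glmQLFTest, group as the only term, all 8 samples) in R 4.3.3, with Benjamini-Hochberg adjustment over 15330 genes. Log2 CPM used a prior count of 2, and 0.5 was added to counts in ratios. The standard errors are not printed by edgeR. They were derived as the absolute log2 fold change divided by the square root of the F statistic of its test. The test was tried on simulated counts. It called 32.0% of the genes changed 2-fold and 71.1% of those changed 4-fold, and 3.8% of its 104 calls were false. Only 194 of the 15035 genes tested in the simulation were changed, whereas 25.0% of genes were called in the data. The adjustment over all genes depends on that share, so these percentages do not carry over to the data. A gene that was not called may still differ. Alternatives were other scalings and filters, DESeq2 1.42.0, limma-voom (limma 3.58.1), a replicate block, and each sample left out. Named genes were the 10 genes, up to 3 called genes per direction with the smallest adjusted p in each related list, the 5 genes most like CAV1 and PLVAP, and PECAM1 and CDH5. NOS3, MFSD2A, CLTC, HMGCS1, CAV3, PACSIN1, DES, DCN, CLDN3, CDH1, KDR, ABCA1, ABCG1 and NANOG were named after their values were seen. So were PDGFRA, PDGFRB, ACTA2, CSPG4, COL1A1, COL1A2 and COL3A1. The genes and lists were chosen with earlier results of these data known. A fold error or p covers these samples only, and without molecular identifiers counts are not independent molecules.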

Additional observations from a re-analysis of the deposited data

Results flagged for a closer look

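Each gene and ratio was examined in each group of 4 samples for a sample lying far from its nearest neighbour by Dixon's test. Of 28 such groups, 2 held one, where chance gives about 1.4. CAVIN2 in iEC F was at 151 CPM, against 35.3 to 39.2 CPM in the other iEC samples. The ratio of CAVIN2 to CAVIN1 reads in iEC F was 0.148, against 0.0434 to 0.0511 in the others, and rests on the same CAVIN2 value.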

How the results depend on the processing

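Over 46 genes and 16 alternatives, 661 of 733 gene results kept their direction and side of the threshold. Another 70 lost the call, 2 gained one and 0 changed sign. The 46 were the 10 genes and genes called in these same data, mostly picked for the smallest adjusted p in their list. For the picked genes, a stable direction was thus largely given in advance. The genes nearest to CAV1 and PLVAP and those named after their values were seen are not in this count. The 10 genes had 3 calls, 2 of them lower, with the replicate block, where CAV2 (adjusted p 0.0693) and EHD2 (0.0521) were lost; same-letter samples correlated by -0.0794 to 0.250 in their deviations from the group means; the labels do not say what the letters share, and they were not treated as pairs. Leaving out 1 sample gave 3 to 6 calls, 2 to 5 lower and 1 to 2 higher. Left-out samples also gave 3 to 4 calls among coat relatives, 1 to 2 among flotillins and rafts, and 2 to 5 in the clathrin list. The log2 ratio of EHD2 to CAV1 ran from 0.78 to 1.27 and that of CAVIN2 to CAVIN1 from 1.01 to 1.72. With a prior count of 0.5, the places of the genes nearest to CAV1 and PLVAP shifted, GRIK5 to place 198. The alternatives called 2660 to 4664 genes in all, against 3829. The lowest count among the 10 genes was 380, and the effect of depth was not tested.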
